A study of Mus musculus with 20 samples.

Results

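Clustered protocadherins are adhesion receptors of the cadherin superfamily, and their transcripts were followed here in RNA sequencing of the heart apex of 20 mice. The members were the 58 of 25308 listed genes whose symbols name an alpha (14), beta (22) or gamma (22) protocadherin, the C-type genes of the alpha and gamma clusters included. The family was selected on measured values: it was taken up because Pcdhgc4 had been seen to be higher in mice with amyloid than in the other mice. Differences that involve the amyloid mice are therefore given as a description, and a test is read only from LS against Ctrl. The comparison of the 2 sequencing runs uses the same amyloid mice and is also a description.

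All mice carried the DH-LMP2A background, in which B cells develop without immunoglobulin heavy chains and plasma cells are numerous. The 7 Ctrl mice carried nothing else and make mouse light chains (genotype DH). The λS-DH mice also carried a human λS light chain gene inserted in the kappa locus, so that plasma cells, not heart cells, make the light chain (genotype DH-lambdaS). Of these, 9 had been induced by injection and had amyloid deposits (AL), and 4 had not been induced and had none (LS). Adults of both sexes were used in the study, and the age, sex and mode of induction of each sequenced mouse are not given in the sources used here. The paper names 2 sequencing runs, and the mice of each are not listed in the sources used here. The split used here goes with the library names (SCoeur against D or S) and with depth, and is an inference. By it, the first sequencing run held 15 mice (7 AL, 4 LS and 4 Ctrl) and the second 5 mice (2 AL and 3 Ctrl). LS mice were thus present in the first run only.

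Total counts per mouse were 43993277 to 62668146 in the first run and 7867642 to 11794615 in the second. Levels are given as CPM, the count of a gene over the library total scaled by TMM, and 3 counts, taken as the floor of detection, correspond to 0.0474 to 0.0748 CPM in the first run and 0.231 to 0.356 CPM in the second. These floors cover counting error only. Cardiomyocyte markers (Myh6, Tnnt2, Actn2, Ryr2 and Tnni3) summed to between 23230 and 56510 CPM in every mouse, as the labelled tissue would have. In whole tissue, fewer cells of a type and less RNA per cell cannot be told apart.

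As background, the extracellular domains of clustered protocadherins bind like partners on neighbouring cells, and the family is best known in neurons, where each cell uses its own combination of isoforms to tell its own branches from those of other cells. In the alpha and gamma clusters, every isoform starts from its own promoter and its own large variable exon, which is spliced to constant exons shared by the whole cluster. Beta genes are single-exon genes without such constant exons. The C-type isoforms (Pcdhac1, Pcdhac2, Pcdhgc3, Pcdhgc4 and Pcdhgc5) are used by many cells of a tissue rather than chosen at random, and Pcdhgc4 is known for its need in the survival of neurons.

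On GRCm38 the family lies on the forward strand of chromosome 18, with the alpha cluster at 36930184-37187661, the beta cluster at 37264938-37524479 and the gamma cluster at 37661793-37841873. The Pcdhgc4 gene (ENSMUSG00000023036) spans 37815079-37841873, between the starts of Pcdhgc3 (37806364) and Pcdhgc5 (37819513). Its variable first exon (37815079-37817983 in the annotated form that starts farthest upstream) belongs to no other gamma entry, whereas its exons at 37825021-37825079, 37833265-37833353 and 37839903-37841873 share a boundary with an exon in all 22 gamma entries. In all, 2116 exonic bases are common to the 22 gamma entries and 2860 to the 14 alpha entries. A read from these bases cannot be placed from its sequence alone, and the counting divided such reads: 97.0% of the gamma values above 0 and 54 of the 60 alpha values above 0 were not whole numbers, against 8.33% of the beta values and 15.2% over all genes (tolerance 0.001). The share of reads placed in 1 gamma entry rather than in another is thus an estimate of the counting program.

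The filter on low counts kept 43 members: all 22 gamma, 20 of 22 beta and 1 of 14 alpha entries. Of the other 15, Pcdha1, Pcdha6, Pcdha7, Pcdhac1 and Pcdhb1 had no count in any mouse. A member was called at an FDR (Benjamini-Hochberg over 14477 genes, edgeR quasi-likelihood test) under 0.05 where its log2 fold change (log2FC) was also 0.58 or more in size. For AL against merged LS and Ctrl mice the size had to reach 1.

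Per kilobase of exon, Pcdhgc3 was the entry of highest level in the apex, with a mean of 3.94 CPM per kb in AL mice and 4.37 CPM per kb in LS and Ctrl mice. Pcdhgc4 stood at 2.17 CPM per kb in AL mice, the second of the 43 tested entries, and at 0.191 CPM per kb in LS and Ctrl mice, where it ranked 32nd. The beta genes of highest level per kilobase were Pcdhb20 and Pcdhb17, with 1.85 and 1.20 CPM per kb in LS and Ctrl mice.

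Pcdhgc4 was higher in every AL mouse than in any LS or Ctrl mouse. Among first-run AL mice, the lowest level was 6.78 CPM, the median 12.2 CPM and the highest 21.0 CPM. The 4 LS mice had 0.496, 0.189, 0.346 and 0.462 CPM, and the 4 Ctrl mice 0.788, 1.03, 0.349 and 0.732 CPM. In the second run, the AL mice had 17.4 and 5.59 CPM and the Ctrl mice 2.26, 1.89 and 3.23 CPM. The Ctrl mice of the second run stood above those of the first, and the groups did not overlap in either run. All 9 AL mice were above all 11 others, as for 0.262% of the tested genes, a share of 3.01% within the first run and 14% within the second.

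The log2FC of Pcdhgc4 was 3.50 (SE 0.40) against Ctrl, 4.88 (SE 0.51) against LS and 3.99 (SE 0.37) against both merged. Fitted on the first run alone it was 4.07 (SE 0.37) against Ctrl and 5.04 (SE 0.40) against LS. Fitted on the second run alone it was 2.25 (SE 0.50) against Ctrl, and neither it nor any other member was called there, with 0.128% of all genes called. Against merged controls Pcdhgc4 was the only one of 43 members called, and 4.88% of all tested genes were called in that comparison (2.74% higher and 2.15% lower). Since this contrast chose the family, nothing is read from the count.

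**Figure D1:**
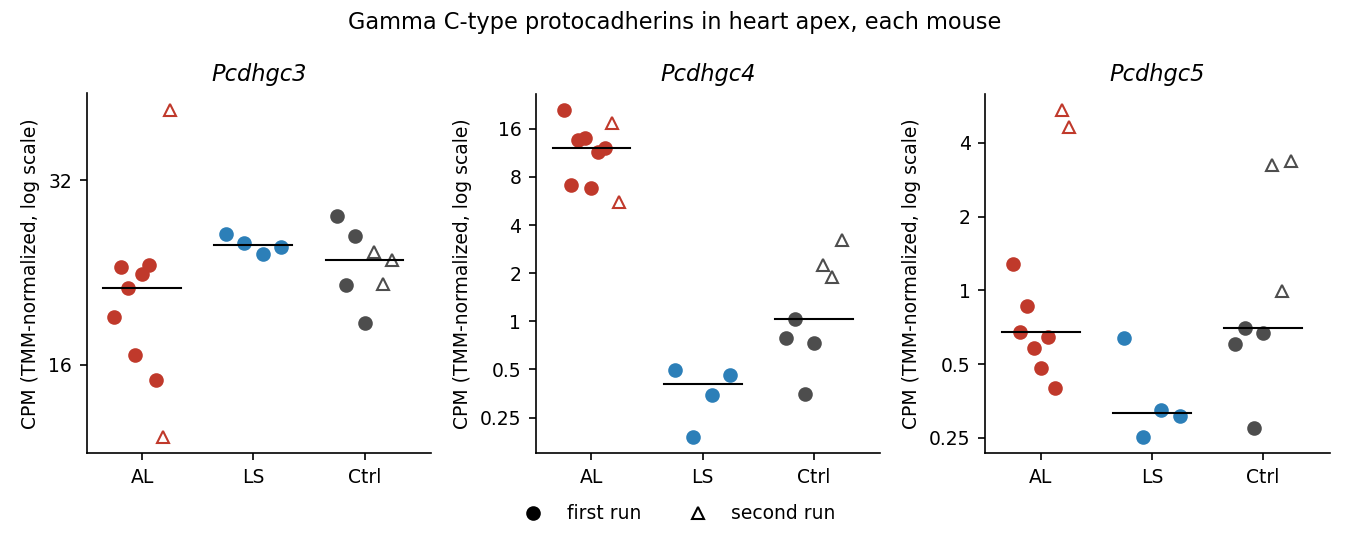
Level of Pcdhgc3, Pcdhgc4 and Pcdhgc5 in each mouse (CPM, log scale) by group, with filled circles for the first run, open triangles for the second and a bar at the group median. Pcdhgc4 is separated between AL (5.59 to 21.0) and all other mice (0.189 to 3.23), and Pcdhgc3 overlaps between groups. Pcdhgc5 follows the run and is higher in AL than in Ctrl mice within the second.

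Of its 2 C-type neighbours, Pcdhgc3 did not share the pattern, and Pcdhgc5 had higher estimates in AL mice with overlap between groups. Pcdhgc3, the C-type isoform with the widest use outside the nervous system, ranged from 12.2 to 41.7 CPM in AL mice (median 21.4). It was 26.2, 25.3, 24.3 and 24.9 CPM in LS mice, and 18.7 to 27.9 CPM in Ctrl mice (median 23.7). The AL range enclosed both other groups, and both AL extremes came from the second run. The log2FC of Pcdhgc3 was -0.09 (SE 0.17) against Ctrl and -0.27 (SE 0.20) against LS. Fitted on the first run alone it was -0.22 (SE 0.13) against Ctrl and -0.31 (SE 0.13) against LS, and it was not called.

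Pcdhgc5, which starts downstream of Pcdhgc4, was at 0.398 to 1.28 CPM in the AL mice of the first run (median 0.643). The LS mice had 0.638, 0.252, 0.326 and 0.308 CPM, and the first-run Ctrl mice 0.602, 0.704, 0.274 and 0.671 CPM. In the second run it was 5.45 and 4.65 CPM in AL mice and 3.25, 0.996 and 3.38 CPM in Ctrl mice. AL and Ctrl mice overlapped in the first run, and the levels of the second run were above nearly all of those of the first. Within the second run both AL mice were above every Ctrl mouse, as for 14% of tested genes. The log2FC of Pcdhgc5 was 0.54 (SE 0.30) against Ctrl and 0.97 (SE 0.38) against LS, and it was not called. DESeq2 called it against LS.

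Whether the higher Pcdhgc4 was matched by lower neighbours was followed in the sum over the gamma entries, which does not depend on how reads of the constant exons are divided among them. Mean Pcdhgc4 in the first run was 12.3 CPM in AL mice and 0.549 CPM in LS and Ctrl mice, a difference of 11.8 CPM. The other 21 gamma entries summed to 58.3 ± 7.52 CPM (SD, n = 7) in AL mice and 74.4 ± 4.36 CPM (SD, n = 8) in the others, a difference of -16.1 CPM. The whole gamma sum was 70.6 ± 5.90 CPM (SD, n = 7) against 74.9 ± 4.24 CPM (SD, n = 8), 4.37 CPM lower in AL mice. By mouse, the sum without Pcdhgc4 lay at 45.9 to 65.7 CPM in AL mice, below the 66.3 to 79.8 CPM of the other first-run mice. The whole sum lay at 58.1 to 77.2 CPM, within reach of the 67.0 to 80.3 CPM of the others. With TMM, the deficit of the neighbours was thus larger in CPM than the excess of Pcdhgc4 in this run. With library totals the order turned: the other entries differed by -9.89 CPM, with overlap (43.8 to 67.2 CPM in AL mice and 62.0 to 75.6 CPM in the others), Pcdhgc4 by 11.96 CPM and the whole sum by 2.06 CPM.

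The second run did not show this. There, mean Pcdhgc4 differed by 9.05 CPM between AL and Ctrl mice, and the other gamma entries were not lower but 100.9 CPM in AL mice and 94.4 CPM in Ctrl mice. The AL pair differed: AL8 had 17.4 CPM of Pcdhgc4 beside 82.6 CPM of other gamma entries, and AL9 had 5.59 CPM beside 119 CPM. The Ctrl mice had 101.9, 80.9 and 100.5 CPM of other gamma entries. Over both runs, the log2 ratio of AL to merged LS and Ctrl means was -0.02 for the whole gamma sum and -0.24 without Pcdhgc4. With library totals in place of TMM these were 0.12 and -0.09, so the sign of the whole sum depends on the scaling. With the 22 entries summed before the fit, the log2FC of the gamma sum was 0.04 (SE 0.07) against Ctrl and -0.09 (SE 0.09) against LS. The log2 ratio of Pcdhgc4 itself was 3.50 with TMM and 3.53 with library totals.

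**Figure D2:**
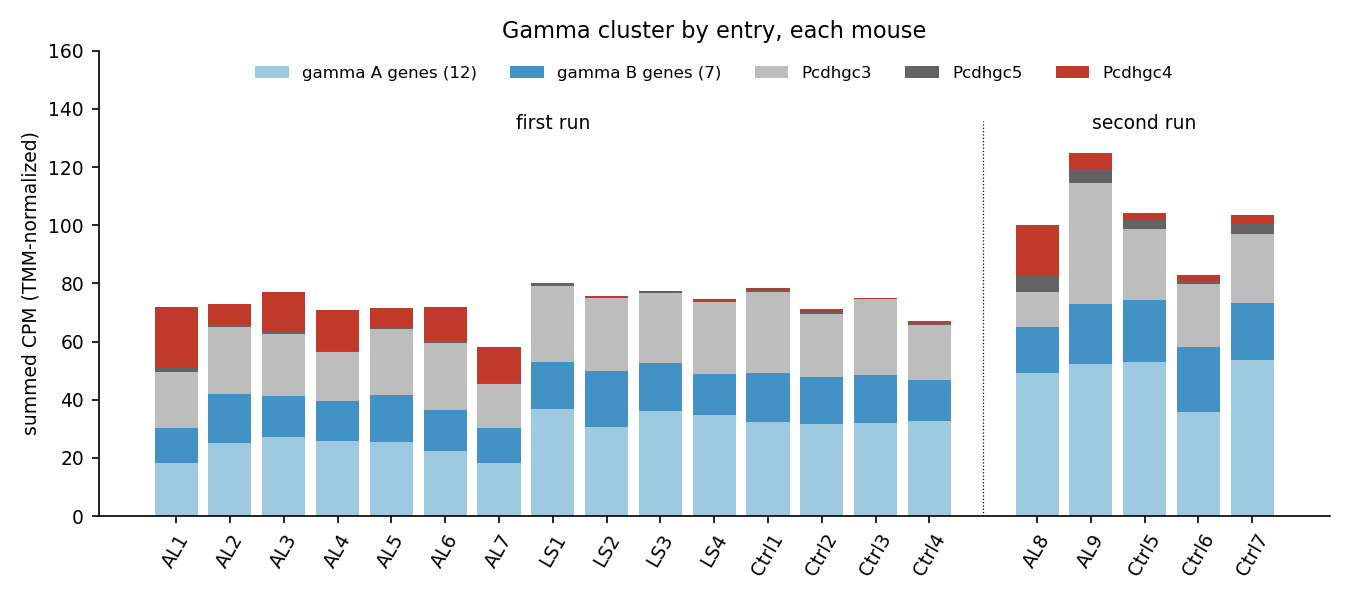
Summed level of the gamma cluster in each mouse (CPM scaled by TMM, stacked bars from 0), divided into the 12 gamma A genes, the 7 gamma B genes, Pcdhgc3, Pcdhgc5 and Pcdhgc4, with the second run to the right of the dotted line. In the first run AL bars reach about the height of the others with a smaller non-Pcdhgc4 part (45.9 to 65.7 against 66.3 to 79.8), and in the second run AL9 has the tallest bar.

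The share of the gamma sum placed in Pcdhgc4 was 4.48 to 29.2% in AL mice (median 17.4%), 0.251 to 0.621% in LS mice and 0.464 to 3.11% in Ctrl mice. AL1, with the highest share, also had the lowest gamma A sum (18.2 CPM). The first-run gamma A sum was 18.2 to 27.1 CPM in AL mice and 30.5 to 36.8 CPM in the others, with no overlap. The gamma B sum was 11.97 to 16.9 CPM against 14.0 to 19.4 CPM, and Pcdhgc3 had means of 20.2 and 24.4 CPM.

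Among the variable gamma A and B entries, whose isoforms make up the combinations that differ from cell to cell, 11 of 12 gamma A entries and 4 of 7 gamma B entries had a log2FC below 0 against Ctrl. Without Pcdhgc4 the median log2FC of the gamma entries was -0.13 against Ctrl and -0.33 against LS, where that of all tested genes was 0.01 in both comparisons. On the first run alone 17 of 21 were below 0 against Ctrl, and in the second run alone 8 of 21.

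Pcdhga7, the gamma A entry of highest mean CPM, ranged from 0.727 to 3.39 CPM in the AL mice of the first run (median 3.08). The LS mice had 6.80, 5.81, 5.75 and 6.01 CPM, and the first-run Ctrl mice 4.25, 4.36, 5.68 and 5.07 CPM. In the second run the AL mice had 5.21 and 7.49 CPM and the Ctrl mice 7.78, 5.08 and 9.38 CPM. AL mice were below all others in the first run, as for 6.41% of tested genes, and overlapped with Ctrl mice in the second. The log2FC of Pcdhga7 was -0.63 (SE 0.23) against Ctrl and -1.07 (SE 0.27) against LS. The call against Ctrl was kept without AL2, AL3, AL9 or Ctrl6 and lost without any 1 of the other mice.

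Pcdhgb4 ranged from 0.917 to 2.67 CPM in AL mice (median 1.48), was 4.51, 2.00, 2.28 and 3.04 CPM in LS mice, and ranged from 1.87 to 4.43 CPM in Ctrl mice (median 2.93). The AL mice were the lower group, with overlap. Its log2FC was -0.77 (SE 0.22) against Ctrl and -0.99 (SE 0.25) against LS. Pcdhga9 had a log2FC of -1.11 (SE 0.35) against LS, where LS1 held the highest of 4 levels, 2.32 CPM, and LS2 the lowest, 0.568 CPM. Without LS1, neither Pcdhgb4 (log2FC -0.73) nor Pcdhga9 (log2FC -0.76) was called against LS, and Pcdhga9 was also not called without LS4.

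The other called gamma entries were Pcdhga5 against Ctrl (log2FC -0.66, SE 0.15) and Pcdhga2 against LS (log2FC -0.69, SE 0.23). Pcdhga5 was at 1.97 to 6.05 CPM in AL mice and 4.61 to 9.06 CPM in Ctrl mice. Pcdhga2 was at 1.83 to 8.18 CPM in AL mice and at 3.57, 5.09, 7.05 and 5.37 CPM in LS mice, and its call was lost without any 1 of AL1, AL5, AL6, AL7, LS2, LS3 and LS4. Pcdhgb2, the gamma B entry of highest mean CPM, was not called, with a log2FC of -0.30 (SE 0.23) against Ctrl and 0.05 (SE 0.26) against LS.

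The beta genes share no constant exon with each other or with the gamma cluster, and their levels do not depend on dividing gamma reads. Only Pcdhb21 and Pcdhb22 overlap, by 455 exonic bases. The summed beta level was 22.9 to 33.8 CPM in AL mice (median 29.9). It was 40.5, 33.2, 34.5 and 33.3 CPM in LS mice and 38.3 to 57.4 CPM in Ctrl mice (median 45.2). Every AL mouse was below every Ctrl mouse, and the LS mice stood between, overlapping with both. Within the first run the beta sum differed by -10.6 CPM between AL mice and the others, beside the -16.1 CPM of the gamma entries other than Pcdhgc4, log2 ratios of -0.45 and -0.35. In the second run it was 32.3 CPM in AL mice and 51.5 CPM in Ctrl mice, beside other gamma entries that were not lower.

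With library totals in place of TMM, the log2 ratio of the beta sum was -0.59 against Ctrl and -0.03 against LS, where TMM gave -0.66 and -0.26. The median log2FC of the 20 tested beta genes was -0.50 against Ctrl, with 17 below 0, and -0.22 against LS, with 15 below 0. On the first run alone 17 of 19 tested beta genes were below 0 against Ctrl, and in the second run alone 10 of 10.

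Pcdhb16 and Pcdhb21 were the 2 members below every LS and Ctrl mouse in all AL mice, as were 1.21% of tested genes. Within the second run 11 of 43 members were below every Ctrl mouse in both AL mice, against 18% of tested genes. Another 7 were above every Ctrl mouse, against 14%. Within the first run 3 of 43 members were below all others, against 6.41%, and 1 was above, against 3.01%. Pcdhb16 was at 1.29 to 2.09 CPM in AL mice (median 1.67), at 2.72, 2.40, 2.67 and 2.85 CPM in LS mice and at 2.89 to 3.55 CPM in Ctrl mice (median 3.03). The 3 groups followed each other without overlap. The log2FC of Pcdhb16 was -0.91 (SE 0.11) against Ctrl, -0.66 (SE 0.13) against LS and -0.25 (SE 0.15) for LS against Ctrl.

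Pcdhb21 was at 0 to 1.11 CPM in AL mice (median 0.897), at 1.54, 1.18, 1.26 and 1.25 CPM in LS mice and at 1.22 to 2.66 CPM in Ctrl mice. The zero came from AL8, the shallowest library, where 3 counts correspond to 0.356 CPM. Its log2FC was -0.99 (SE 0.31) against Ctrl. Pcdhb19 was at 1.33 to 3.65 CPM in AL mice (median 2.39), at 4.94, 3.30, 3.30 and 3.81 CPM in LS mice and at 3.74 to 6.20 CPM in Ctrl mice (median 4.84). Its log2FC was -0.98 (SE 0.18) against Ctrl, and LS mice overlapped with both other groups.

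**Figure D3:**
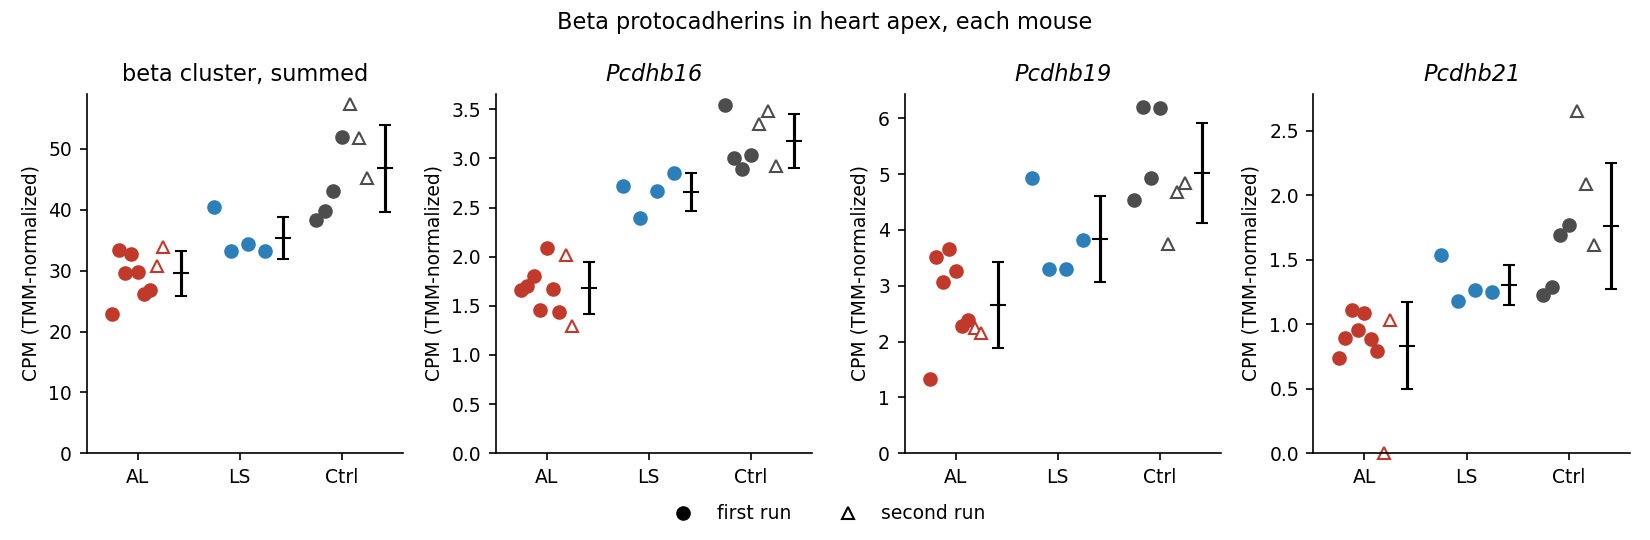
Summed beta level and the levels of Pcdhb16, Pcdhb19 and Pcdhb21 in each mouse (CPM, axes from 0), with filled circles for the first run, open triangles for the second, and mean ± SD beside each group. In all 4 panels the AL mice are below the Ctrl mice of their run, and for Pcdhb16 the 9 AL mice (1.29 to 2.09) are below all 11 others.

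Against Ctrl, 12 members were called, 1 higher (Pcdhgc4) and 11 lower, where 7.81% of all tested genes were called, 4.1% higher and 3.71% lower. The lower ones were Pcdhb11, Pcdhb12, Pcdhb14, Pcdhb16, Pcdhb17, Pcdhb18, Pcdhb19, Pcdhb21, Pcdhga5, Pcdhga7 and Pcdhgb4. Pcdhb17 was just past the limit with a log2FC of -0.59 (SE 0.11), a call lost without any 1 of AL1, AL7, Ctrl3, Ctrl4 and Ctrl6, and Pcdhb20 just short of it with -0.58 (SE 0.14). Pcdhb22, the beta gene of highest mean CPM, was not called, with a log2FC of -0.41 (SE 0.16) against Ctrl. Without Ctrl4, the mouse with the highest first-run beta sum (52.0 CPM), 7 members were called, without Pcdhb11, Pcdhb12, Pcdhb17, Pcdhb18 and Pcdhga7. Against LS, 6 members were called, Pcdhgc4 higher and Pcdhb16, Pcdhga2, Pcdhga7, Pcdhga9 and Pcdhgb4 lower, where 8.9% of all tested genes were called, 5.86% higher and 3.03% lower. These comparisons share the AL mice, and nothing is read from their counts.

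**Figure D4:**
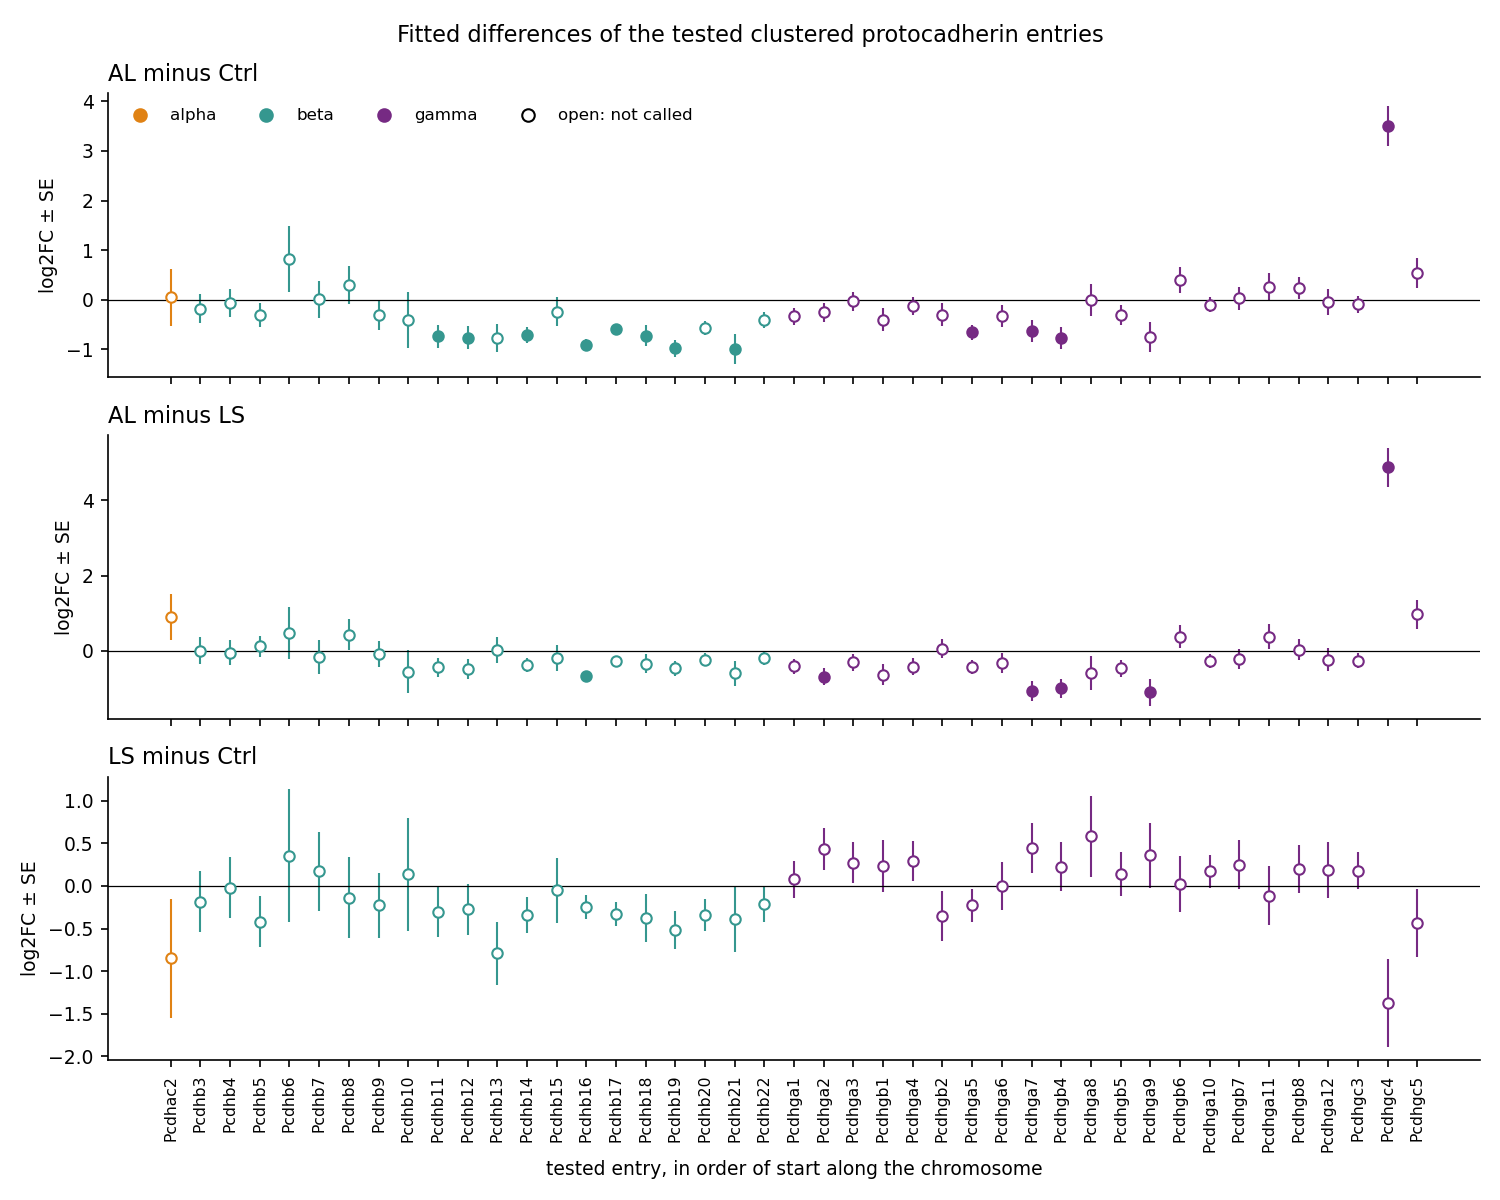
Fitted log2FC with its SE for the 43 tested members in order along the chromosome, for AL minus Ctrl, AL minus LS and LS minus Ctrl (each panel has its own axis), filled where called. Pcdhgc4 stands apart in both AL panels (3.50 and 4.88), most beta genes lie below 0 against Ctrl, and no member is called for LS minus Ctrl.

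The alpha cluster was barely expressed, with a sum of 0.474 to 1.13 CPM in AL mice, 0.568 to 0.662 CPM in LS mice and 0.224 to 0.697 CPM in Ctrl mice. With the 14 entries summed before the fit, the alpha sum was called higher against Ctrl, with a log2FC of 0.73 (SE 0.24), and was not called against LS (log2FC 0.49, SE 0.26). Pcdhac2, the single alpha entry that was tested, was at 0 to 0.864 CPM in AL mice, at 0.284, 0.484, 0.204 and 0.0385 CPM in LS mice and at 0 to 0.548 CPM in Ctrl mice. Its zeros all came from the second run. Pcdha4 was picked out after its values were seen, because it was called where the filter was dropped or the first run was fitted alone, a fit that called 5.01% of genes for AL against merged controls. The first-run estimates were 0 to 16.1 counts in AL mice (median 13.0), 0, 0, 0 and 4.45 in LS mice and 2.00, 0, 0 and 0 in Ctrl mice. It had 0 counts in all mice of the second run. These counts are near the floor and come from a cluster whose reads are divided among entries.

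LS mice, which carry the light chain without deposits, were compared with Ctrl mice, a comparison that took no part in the choice of the family. No member was called, where 0.0207% of all tested genes were called (0.00691% higher and 0.0138% lower), and DESeq2 also called none. The lowest FDR was 0.784 (edgeR), and 4 members had an unadjusted p under 0.05. Of these, Pcdhgc4 was lower in LS mice with a log2FC of -1.38 (SE 0.52), an unadjusted p of 0.0152 by edgeR's quasi-likelihood test and an FDR of 0.784. Fitted on the first run alone, the only run with LS mice, the log2FC of Pcdhgc4 was -0.98 (SE 0.42, edgeR FDR 0.602). The first-run LS and Ctrl levels of Pcdhgc4 overlapped, 0.189 to 0.496 against 0.349 to 1.03 CPM. Pcdhb13 (log2FC -0.79), Pcdhb19 (-0.52) and Pcdhb17 (-0.33) were the other 3, also with lower estimates in LS mice, and failed the correction. Of the beta genes 17 of 20 had a log2FC below 0, and of the gamma entries without Pcdhgc4 5 of 21, beside 49.9% of all tested genes. The gamma entries divide common reads, and no test was made over the members as a set. Nothing is read from these counts.

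Whether the difference between AL and Ctrl mice changed with the run was tested by their interaction. No member passed an FDR under 0.05, where 0.677% of tested genes did (0.235% higher and 0.442% lower), and 9 members had an unadjusted p under 0.05. For Pcdhgc4 the second-run difference was smaller by 1.87 on the log2 scale (log2FC -1.87, SE 0.67, edgeR FDR 0.194). The lowest FDR was that of Pcdhga8 (log2FC 2.69, SE 0.66, edgeR FDR 0.0726), which the likelihood ratio test called. Pcdhga8 was at 2.01 and 2.32 CPM in the second-run AL mice and at 0.332 to 0.693 CPM in those of the first. Without Ctrl5, Pcdhga8 was called. Leaving out AL8 or AL9 leaves no replicate among the second-run AL mice, and calls from those fits are not read. With 2 AL mice in the second run, the interaction rests on single libraries. It also uses the AL mice whose values chose the family, so it is a description.

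Markers of other cells were set beside these values. Of 5 mesothelial markers (Wt1, Msln, Upk3b, Upk1b and Krt19), 4 were called higher in AL mice in each comparison, such as Upk1b with a log2FC of 2.35 (SE 0.49) against Ctrl. Their summed level was 16.8 to 240.8 CPM in AL mice, 7.13 to 22.4 CPM in LS mice and 13.4 to 32.7 CPM in Ctrl mice. AL9, with the highest mesothelial sum, had the lowest Pcdhgc4 level of the AL mice (5.59 CPM). AL2, with a sum of 16.8 CPM within the Ctrl range, had 7.11 CPM of Pcdhgc4.

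Of 9 neuronal markers, 4 were tested and Prph and Tubb3 were called higher against Ctrl. Tubb3 had a log2FC of 1.92 (SE 0.58). Against LS neither was called, and Uchl1 was called higher (log2FC 0.90, SE 0.28). Chat was at 0 in every mouse. The neuronal sum was 3.67 to 10.8 CPM in AL mice, 2.50 to 4.16 CPM in LS mice and 3.15 to 5.23 CPM in Ctrl mice. AL8 had the lowest neuronal sum of the AL mice, within the Ctrl range, beside a Pcdhgc4 level of 17.4 CPM. The part of mesothelial and neuronal cells in the Pcdhgc4 levels was not tested.

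**Figure D5:**
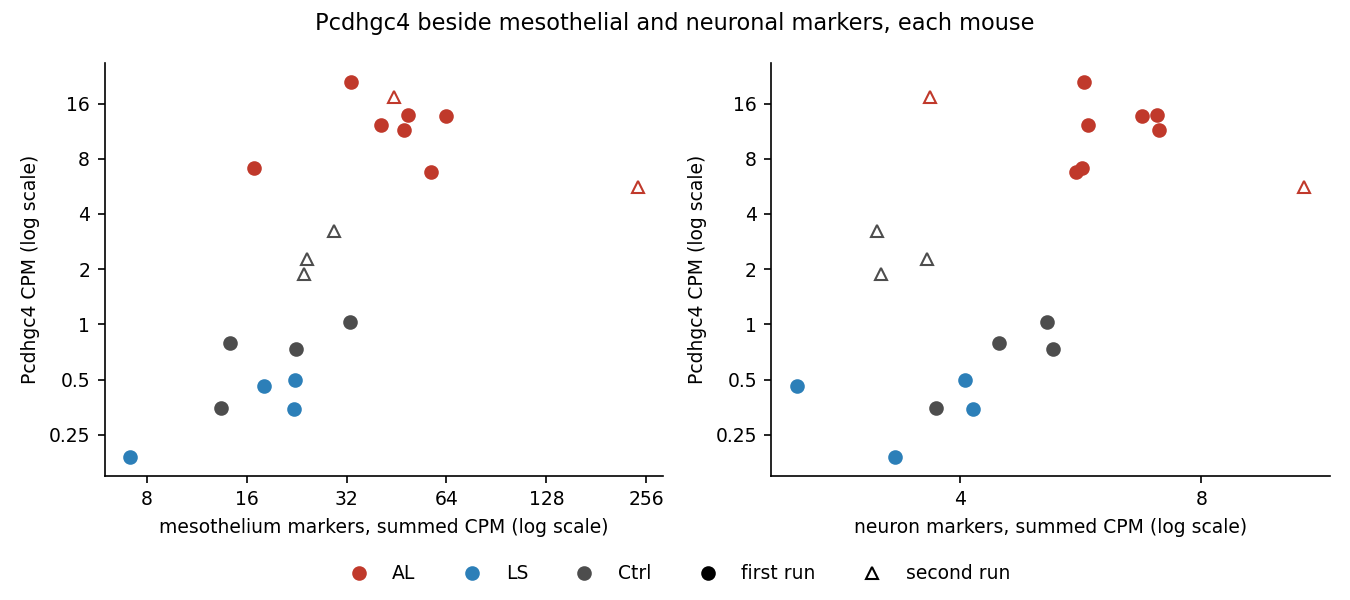
Pcdhgc4 level (CPM, log scale) against the summed level of 5 mesothelial markers (left) and 9 neuronal markers (right) in each mouse (CPM, log scale), by group and run. Most AL mice lie higher than the LS and Ctrl mice on both axes, AL2 (mesothelium) and AL8 (neurons) have marker sums inside the range of the other mice, and AL9 has the highest sums with the lowest Pcdhgc4 of the AL mice.

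Liver markers (Alb, Apoa1, Ttr, Fga and Serpina1c) summed to 0.642 to 29.7 CPM in AL mice, 5.07 to 148.1 CPM in LS mice and 0.154 to 261.2 CPM in Ctrl mice, and all 5 were called lower in AL mice against Ctrl. When the 5 mice of highest Alb (Ctrl1, Ctrl3, Ctrl4, LS1 and LS3) were left out, a choice made after the data were seen, Pcdhgc4, Pcdhb16 and Pcdhb19 were called against Ctrl and Pcdhgc4 against LS. This kept Ctrl2 as the only Ctrl mouse of the first run, and LS2 and LS4 as the only LS mice. The share of all genes called in this smaller fit is not given, so nothing is read from the fewer calls. Of the smooth muscle and pericyte markers 1 of 5 (Acta2, log2FC 0.88, SE 0.27) was called against Ctrl. No cardiomyocyte, fibroblast, endothelial, macrophage, Schwann cell or T and B cell marker was called in any of the group comparisons. The cardiomyocyte sum was nevertheless uneven. In the first run it was 23230 to 35840 CPM in AL mice and 34970 to 40720 CPM in the others. In the second run it was 54590 and 46740 CPM in AL mice and 50030 to 56510 CPM in Ctrl mice. Its part in the protocadherin levels was not tested.

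Other genes of the pathway were mostly not called. None of 17 genes of promoter choice and chromatin (such as Ctcf, which binds protocadherin promoters, and Smchd1, which silences the clusters) and none of 8 genes of shedding and cleavage (such as Adam10, which sheds the extracellular part) was called in any comparison. The values of Smchd1 are given because it was picked out of the 17 after they were seen. It was at 19.28 to 28.7 CPM in AL mice, below the 34.1 to 35.02 CPM of LS mice and the 29.7 to 37.7 CPM of Ctrl mice. Of tested genes, 1.21% showed a separation in this direction. The log2FC of Smchd1, -0.45 (SE 0.07) against Ctrl and -0.43 (SE 0.08) against LS, was short of the limit of 0.58 in size. The median log2FC of the 17 genes was -0.24 against Ctrl and -0.23 against LS. A part of Smchd1 in the protocadherin levels was not tested. Of 17 cytoplasmic partners, Ptk2b, a kinase bound by the constant domains of alpha and gamma protocadherins, was higher against Ctrl (log2FC 1.02, SE 0.19) and LS (log2FC 0.71, SE 0.23). Ptk2b was at 7.94 to 19.02 CPM in AL mice, 5.66 to 6.66 CPM in LS mice and 3.46 to 7.72 CPM in Ctrl mice. AL mice were above all others, as for 0.262% of tested genes. Ret, a receptor kinase associated with protocadherins in neurons, was lower against LS (log2FC -0.87, SE 0.30), at 2.41 to 8.54 CPM against 5.58 to 9.80 CPM.

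No call was made among the non-clustered protocadherins (9 of 12 tested) or among 18 tested genes that flank the clusters or lie between them on chromosome 18, such as Taf7, Diaph1 and Hdac3. Their median log2FC was 0.06 against Ctrl and -0.08 against LS, beside 3.50 and 4.88 for Pcdhgc4.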

How the data were processed

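RNA from the heart apex was made into stranded poly(A) libraries and sequenced in 2 runs. The authors aligned reads to GRCm38 with STAR and estimated counts per gene with Salmon, in the nf-core workflow, and deposited these expected (estimated) counts without normalization. Salmon divides reads that fit several transcripts. Counts were rounded, passed through edgeR 4.0.16's filterByExpr (by group, with 10 as its minimum count, leaving 14477 genes), scaled by TMM and tested with glmQLFit and glmQLFTest in R 4.3.3, with group and run as terms and 3 groups in 1 fit. SE is the log2FC over the square root of F. P-values are two-sided. CPM were not corrected for the run. Gene positions and exons come from GENCODE M21 (58 of 58 members matched by ID). No adjusted value or set test over the members was made.

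Named members were the C-type genes, all called members and the 2 tested members of highest mean CPM in each of the alpha, beta, gamma A and gamma B groups; from the other lists, called genes. Pcdha4, Pcdhga8, Pcdhb13 and, from the other lists, Smchd1 were named after their values were seen. Members, lists and the rule were chosen with earlier results of these data known. Alternatives were DESeq2 1.42.0, the likelihood ratio test, RLE factors, other filters, ComBat-seq (sva 3.50.0), no run term, each run alone, 2-group fits, a replicate block, summed alpha and gamma entries and leaving out each mouse. The tests were tested on simulated data. Library correlations were 0.908 to 0.98, and no libraries were duplicates. Of the list of flanking genes, Relch lies on chromosome 1 and was left out. Figures used matplotlib.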

Additional observations from a re-analysis of the deposited data

Results flagged for a closer look

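In 72 sets of values (named members and sums by group), 4 held a mouse whose gap to its nearest neighbour was large against the range of its group by Dixon's criterion, and chance alone marks about 1 set in 20. Pcdhgc3 was 41.7 CPM in AL9, where the next AL mouse had 23.3 CPM. The gamma sum without Pcdhgc4 was also highest in AL9, at 119 CPM, next to 82.6 CPM. Pcdhb21 was at 0.0 CPM in AL8, below the next AL level of 0.743 CPM, in the shallowest library. Pcdhb20 was 7.11 CPM in LS1, where the next LS mouse had 4.96 CPM. Without AL9, the log2FC of Pcdhgc3 against merged LS and Ctrl was -0.34 where it was -0.16 with all mice. Its edgeR FDR was 0.0132 without AL9 and 0.427 with all mice, and it was called in neither fit.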

How the results depend on the processing

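Against merged LS and Ctrl, the 1 called member became 2 without a filter and 0 with at least 10 counts in every mouse, a filter that removes Pcdhgc4. It became 3 in the first run alone, 0 with alpha and gamma entries each summed, which removes Pcdhgc4 as an entry, and 1 to 2 with a mouse left out. Against Ctrl, the 12 called members became 4 with ComBat-seq, 3 without the 5 mice of highest Alb, 0 in the second run alone, and 7 (without Ctrl4) to 14 with a mouse left out. Against LS, the 6 called members became 3 with no run term, 1 with summed entries, 1 without the 5 mice of highest Alb, and 5 to 6 with a mouse left out. For the run interaction the 0 calls became 1 by the likelihood ratio test and 1 without Ctrl5, and the fits without AL8 or AL9 are not read. Pcdhgc4 was called against Ctrl wherever both runs or the first run were fitted and the entry was kept. LS against Ctrl gave 0 calls under every alternative. The cause of these changes was not tested beyond what each setting removes. The share of all genes called under each setting is not given beside these counts, so nothing is read from how they change.

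With the replicate number as a block, the called members were 3 against merged controls, 5 against Ctrl and 3 against LS. The share of all genes called with the block is not given, so nothing is read from these counts. Same-numbered pairs correlated at -0.228 to 0.293, with 4 of 15 above 0.1. Differently numbered pairs were not compared, so these values cannot show whether the numbers pair the mice.

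The log2 ratio of the gamma sum without Pcdhgc4 became 0.10 in the second run alone, and -0.38 to -0.18 with a mouse left out. Estimates that turned sign, none of them called with all mice, were Pcdhac2 against Ctrl (-0.0055 by DESeq2, -0.0492 by ComBat-seq, -0.394 without the 5 mice, -0.258 without Ctrl4 to 0.259 without AL9), Pcdhgc3 against Ctrl (0.105 without the 5 mice, 0.282 in the second run, -0.336 without AL9 to 0.022 without AL8), Pcdhga9 against Ctrl (0.0213 in the second run), Pcdhb22 against LS (0.0763 without the 5 mice) and Pcdhgb2 against LS (-0.144 without LS4 to 0.321 without LS2).

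In the second run, levels near the floor of 0.231 to 0.356 CPM are not detectable at this depth.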
